A study of Homo sapiens with 16 samples.

Results

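DNA repair and checkpoint genes were followed in HCT116 cells, a human colon cancer line that the labels give as wild type for p53. The 39 genes were chosen by symbol from the 20271 rows of the deposited expression table, with no threshold on a measured value. By textbook knowledge 4 of them are direct targets that p53 activates (XPC, DDB2, POLH and ERCC5), 21 are linked to the cell division cycle, and 14 are neither. The genes and classes were chosen with earlier results of these data known, so differences between the classes are described only. All 39 were found. Of these 37 averaged 1 FPKM or more over all libraries (FPKM is fragments per kilobase of transcript, scaled to sequencing depth) and were tested. The others, BRCA2 and ATM, stayed below that mean, with ranges of 0.0215 to 0.717 and 0.185 to 1.31 FPKM. The tested genes were thus 4 p53-activated, 20 cell-cycle-linked and 13 others.

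Cells received CTR siRNA (the control), p53 siRNA, iASPP siRNA or p53+iASPP siRNA for 3 days, and 4 of the groups received Nutlin-3 for 0.5 days. This gave 8 groups of 2 libraries, 16 in all, from 1 cell line, and messenger RNA was sequenced. The sources used here do not say that replicates came from separate cultures, so p-values measure only the spread between these libraries, which may be technical. In bulk RNA, fewer cells of a kind and less RNA per cell cannot be told apart.

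p53 is a transcription factor that its ubiquitin ligase MDM2 keeps low, and nutlin blocks the contact between the proteins so that p53 accumulates. iASPP, encoded by PPP1R13L, binds p53 family proteins and inhibits their activity. Active p53 switches on genes that halt division, CDKN1A (p21) above all, and a small set of repair genes for damage by ultraviolet light. Arrest by p21 keeps RB family proteins bound to E2F factors, and genes that E2F and the mitotic factors drive are then repressed. Much of homologous recombination, the Fanconi anaemia pathway for interstrand crosslinks, and the ATR and CHK1 checkpoint belongs to those cell-cycle genes, since these systems serve replicating DNA.

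Promoter stretches are printed for the p53-activated genes named most below, for RAD51AP1, whose level fell furthest with nutlin, and for the 5 cell-cycle-linked genes with an E2F word next to the start. They run 5′ to 3′ on the gene's strand from 60 bases before to 20 bases after the RefSeq start on GRCh38.p14. Capitals mark an E2F word, which was searched as TTTCCCGC, TTTCGCGC, TTTGCCGC or TTTGGCGC on both strands.
XPC, chr3:14178582-14178661, minus strand: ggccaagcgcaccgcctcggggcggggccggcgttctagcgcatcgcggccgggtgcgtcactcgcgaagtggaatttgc
DDB2, chr11:47214394-47214473, plus strand: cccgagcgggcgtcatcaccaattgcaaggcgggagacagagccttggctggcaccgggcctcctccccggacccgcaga
POLH, chr6:43576125-43576204, plus strand: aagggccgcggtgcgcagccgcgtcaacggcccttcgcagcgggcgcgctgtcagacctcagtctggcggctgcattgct
RAD51AP1, chr12:4538830-4538909, plus strand: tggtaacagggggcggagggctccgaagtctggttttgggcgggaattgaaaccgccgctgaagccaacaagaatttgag
MSH6, chr2:47783085-47783164, plus strand: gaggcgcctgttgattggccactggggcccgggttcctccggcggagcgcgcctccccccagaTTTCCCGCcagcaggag
FANCD2, chr3:10026377-10026456, plus strand: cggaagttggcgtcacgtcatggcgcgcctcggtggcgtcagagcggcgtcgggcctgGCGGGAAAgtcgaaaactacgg
EXO1, chr1:241848144-241848223, plus strand: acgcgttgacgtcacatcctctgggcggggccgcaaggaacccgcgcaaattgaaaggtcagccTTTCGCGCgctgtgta
CLSPN, chr1:35769959-35770038, minus strand: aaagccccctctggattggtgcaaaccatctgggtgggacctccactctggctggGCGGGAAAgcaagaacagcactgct
TOPBP1, chr3:133661922-133662001, minus strand: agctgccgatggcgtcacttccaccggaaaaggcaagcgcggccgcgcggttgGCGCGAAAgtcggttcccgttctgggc

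RefSeq promoters (250 bases before to 50 after the start) were matched for 37 of the 39 genes, all but RAD54B and FANCI. Only the first listed start of each gene was searched, and other starts of the same gene were not. An E2F word stood in 7 of the 19 cell-cycle-linked promoters, or 36.8%, against 3.33% of all 27305 gene promoters. In MSH6, FANCD2, EXO1, CLSPN and TOPBP1 the word began at most 10 bases from the start, in 26.3% of the cell-cycle-linked promoters against 0.245% of all. That window of 10 bases was chosen after the positions were seen. XRCC2 and FANCA carried their word farther off. Of the p53-activated genes XPC carried 1, at position -241, and among the 14 others FANCC did. The cell cycle homology words TTTGAA and TTTAAA, counted whether or not they overlapped an E2F word, stood in 15.8% of the cell-cycle-linked promoters and 24.3% of all. The p53 response element, searched as 2 half-sites with no spacer, intact core bases and up to 3 mismatches, was in 0 of the 37 and in 1.05% of all. A match is a description of letters, and an absence covers these windows only.

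The silencing of iASPP was read first. PPP1R13L stood at 9.95 and 8.69 FPKM with CTR siRNA and 0.541 and 0.279 with iASPP siRNA, and the label held in every iASPP group, the highest of whose 8 libraries was 2.45 FPKM. CDKN1A stood at 70.7 and 72.7 FPKM with CTR siRNA, 14.5 and 15.6 with p53 siRNA, 1509.7 and 1577 with CTR siRNA and nutlin, and 47.4 and 107 with p53 siRNA and nutlin. The step size of low values gave a relative depth between 3.68 and 7.67 for replicate 2 libraries and between 0.824 and 1.33 for replicate 1. That search allowed only a deeper replicate 2, so it did not test which replicate was deeper. More genes stood above 0 in replicate 2 of every group, with 13512 and 15174 in the CTR siRNA pair. Over all tested genes replicates lay close in 5 groups, the 4 without nutlin and CTR siRNA+nutlin (median absolute log2 difference 0.118 to 0.153), and farther apart in the 3 other nutlin groups (0.235 to 0.316), whose replicate 2 libraries are called the diverging libraries. Over the 37 repair genes alone the split was less clean, with 0.203 in p53 siRNA and 0.19 in p53+iASPP siRNA+nutlin. The gap does not show which library of a pair diverged, and the 3 replicate 1 libraries were not left out together. In both nutlin groups with p53 siRNA the diverging library held more CDKN1A than its replicate 1. The levels were 107 against 47.4 FPKM with p53 siRNA and 141 against 83.1 with both siRNAs. In p53 siRNA+nutlin all 20 cell-cycle-linked genes were lower in replicate 2, by a median of -0.588 on the log2 scale. In iASPP siRNA+nutlin 19 of 20 were higher in replicate 2 (median 0.672), and CDKN1A stood at 1656 and 776 FPKM. With both siRNAs and nutlin all 4 p53-activated genes were higher in replicate 2 (median 1.03). The 8 colon epithelial markers had a summed level of 1863 to 2869 FPKM. Of these EPCAM, CDH1, KRT8, KRT18 and CDX2 reached a mean of 1 FPKM, and KRT20, VIL1 and CDH17 did not. None of the 13 fibroblast, leukocyte and endothelial markers reached that mean, and CD3E was at 0 throughout.

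**Figure D1:**
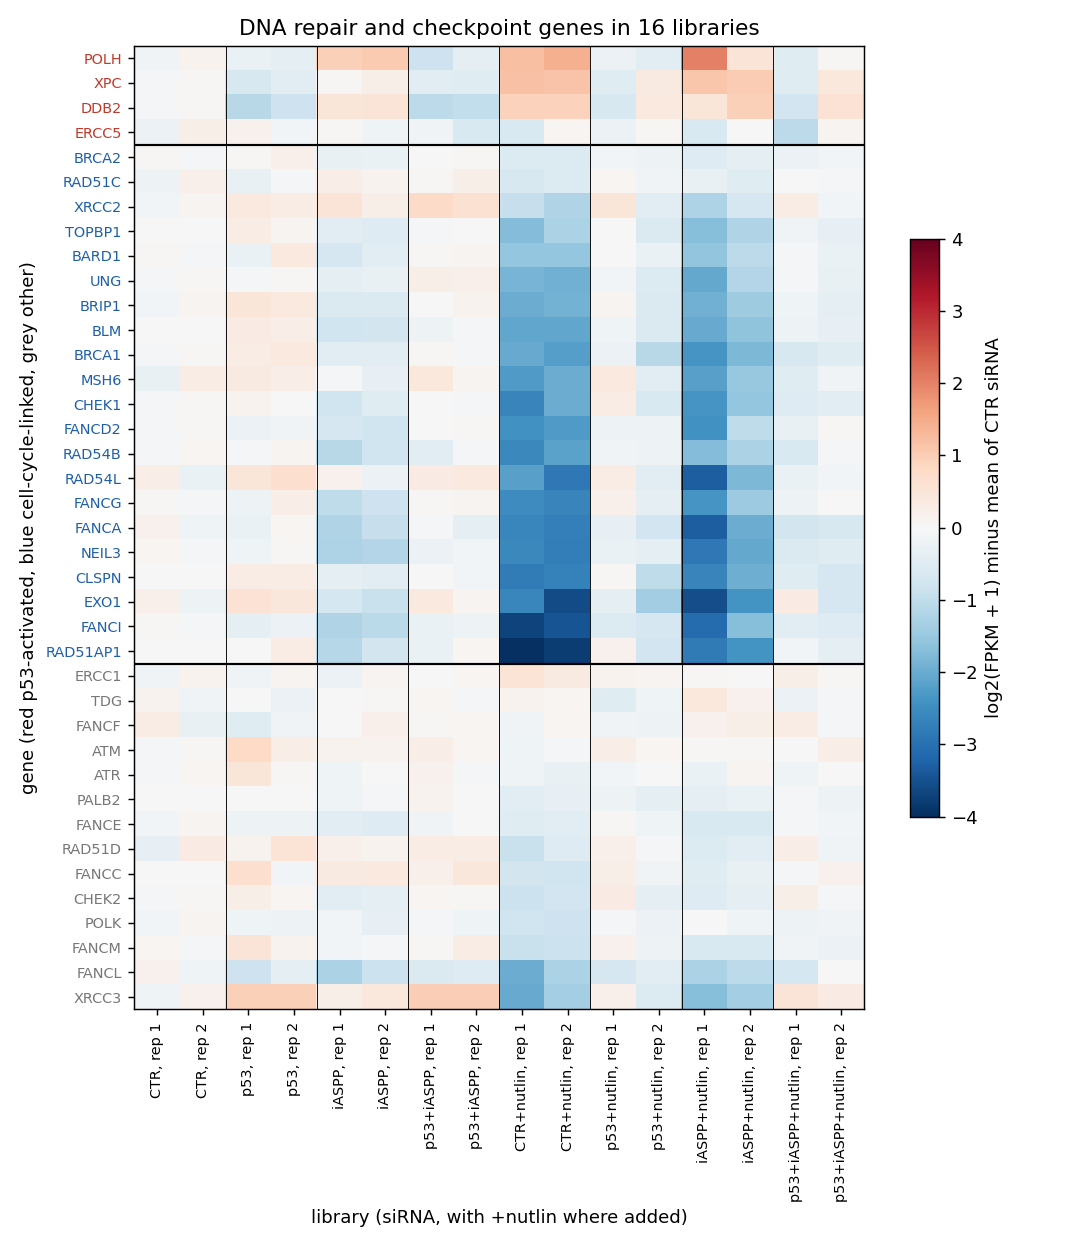
Each row is 1 of the 39 genes and each column 1 of the 16 libraries, and colour gives log2(FPKM + 1) minus the mean of the CTR siRNA libraries. Within each class genes are ordered by the nutlin difference in CTR siRNA. The blue block of cell-cycle-linked genes is deepest in CTR siRNA+nutlin and iASPP siRNA+nutlin and pale in the nutlin groups with p53 siRNA.

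With nutlin in control cells the p53-activated genes XPC and POLH rose and all 20 tested cell-cycle-linked genes fell. On the log2(FPKM + 1) scale RAD51C fell by 0.58, the least of the 20, and RAD51AP1 fell by 4.06, the most. The median of the cell-cycle-linked genes was -2.34, that of the 13 others -0.69 with 8 of them falling, and that of all 10662 genes tested -0.20. By limma, at an adjusted p under 0.05 over all genes tested, 2 of the 37 rose and 28 fell, where 5.87% of all genes rose and 21% fell. Scaling by the median of ratios shifted the median of all genes by 0.206 and the share of rises among all called genes from 21.9% to 48.1%. Under that scaling 4 of the 37 rose (DDB2 and ERCC1 in addition) and 24 fell. With each close pair averaged into 1 sample the spread comes from the diverging pairs alone, and 0 of the 37 passed (22 at an unadjusted p under 0.05). Counts at an unadjusted p and counts from refits, here and below, are given without the share of all genes. They therefore do not set the repair genes against other genes. All differences below are on the log2(FPKM + 1) scale, given ± standard error, and understate the FPKM ratio where levels are low.

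XPC (ENSG00000154767, chromosome 3 from 14145147 to 14178783, minus strand, GRCh38 as for all genes below) encodes the protein that senses helix distortion at the start of global nucleotide excision repair. XPC measured 5.73 and 6.13 FPKM in CTR siRNA cells, 3.44 and 4.14 in p53 siRNA cells, 6.21 and 7.08 in iASPP siRNA cells and 4.04 and 3.98 in cells with both. With nutlin XPC stood at 14.5 and 14.3, 3.97 and 7.79, 14 and 13.1 and 4.0 and 8.23 FPKM in the same order. The CTR siRNA+nutlin and iASPP siRNA+nutlin libraries were all above 13 FPKM, and all other libraries were below 9. With nutlin in control cells XPC rose 2.43-fold in FPKM (1.15 ± 0.28, adjusted p = 0.0113). The call was lost in 3 of the 4 fits that left out 1 library, all but the one without CTR siRNA replicate 2.

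DDB2 (ENSG00000134574, chromosome 11 from 47214465 to 47239240, plus strand) encodes a subunit of the complex that finds ultraviolet photoproducts and hands them to XPC. DDB2 measured 22.9 and 24.7 FPKM in CTR siRNA cells, 10.5 and 13 in p53 siRNA cells, 33.5 and 34.4 in iASPP siRNA cells and 11.1 and 11.5 in cells with both. With nutlin DDB2 stood at 45.9 and 46.1, 15 and 31.5, 33.7 and 46.9 and 13.4 and 36 FPKM in the same order. The replicate 2 libraries of the nutlin groups with p53 siRNA, alone or with iASPP siRNA, stood above every untreated control library, while their replicate 1 libraries stood below them. The control pair went from 23.8 ± 1.25 to 46 ± 0.143 FPKM (mean ± SD, n = 2), a difference of 0.92 ± 0.39 that did not pass limma in the fit of all libraries (adjusted p = 0.102). Without the 3 diverging libraries the same difference passed (adjusted p = 3.1e-04), and it also passed under median-of-ratios scaling (adjusted p = 0.0367).

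POLH (ENSG00000170734, chromosome 6 from 43576150 to 43615660, plus strand) encodes DNA polymerase eta, which copies past thymine dimers. POLH measured 4.1 and 5.15 FPKM in CTR siRNA cells, 3.63 and 3.35 in p53 siRNA cells, 9.95 and 10.6 in iASPP siRNA cells and 2.18 and 3.35 in cells with both. With nutlin POLH stood at 11.9 and 13.9, 3.73 and 3.17, 21.8 and 7.09 and 2.99 and 4.76 FPKM in the same order. POLH was high in iASPP siRNA and in the control and iASPP nutlin groups, and in iASPP siRNA+nutlin replicate 1 was the highest of the 16 libraries while replicate 2 lay below both iASPP siRNA libraries. In control cells it rose 2.8-fold with nutlin (1.31 ± 0.37, adjusted p = 0.0237), a call that was lost without any 1 of the 4 libraries compared and without the filter on low values. A pseudogene carries the gene's name, and reads could be split between the copies.

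ERCC5 (ENSG00000134899, chromosome 13 from 102807146 to 102876001, plus strand) encodes the XPG nuclease that cuts on the 3′ side of a lesion. ERCC5 measured 1.94 and 3.01 FPKM in CTR siRNA cells, 2.87 and 2.16 in p53 siRNA cells, 2.52 and 2.04 in iASPP siRNA cells and 2.1 and 1.26 in cells with both. With nutlin ERCC5 stood at 1.23 and 2.64, 1.9 and 2.56, 1.24 and 2.4 and 0.656 and 2.72 FPKM in the same order. The groups overlapped throughout. The nutlin difference was -0.27 ± 0.38 (adjusted p = 0.635) and turned to 0.083 without CTR siRNA+nutlin replicate 1. The readthrough gene BIVM-ERCC5 shares 5213 of its 8242 exonic bases, so its level is uncertain.

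**Figure D2:**
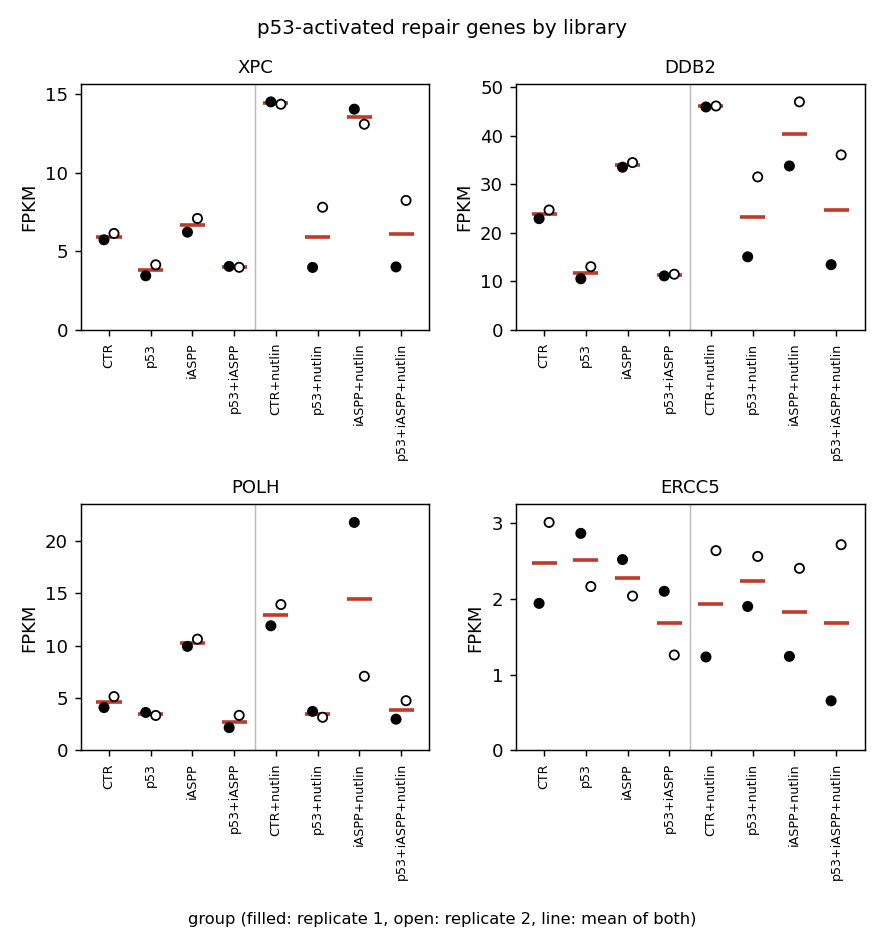
FPKM of XPC, DDB2, POLH and ERCC5 in the 8 groups, with replicate 1 filled, replicate 2 open and the mean as a line. XPC at 13.1 to 14.5 FPKM in CTR siRNA+nutlin and iASPP siRNA+nutlin stands apart from all other groups, and ERCC5 shows no group apart.

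In translesion synthesis and nucleotide excision the remaining genes were POLK and ERCC1. POLK encodes a translesion polymerase for bulky adducts. POLK measured 3.85 and 4.57 FPKM in CTR siRNA cells, 3.65 and 3.49 in p53 siRNA cells, 3.79 and 3.15 in iASPP siRNA cells and 4.0 and 3.61 in cells with both. With nutlin POLK stood at 1.96 and 1.95, 3.99 and 3.37, 4.13 and 3.56 and 3.52 and 3.68 FPKM in the same order. The CTR siRNA+nutlin libraries were the lowest of the 16, with every other library above 3 FPKM, and POLK fell there (-0.81 ± 0.14, adjusted p = 0.0014). ERCC1, the partner of XPF in the cut on the 5′ side, stood at 38.8 and 47.9 FPKM without and 63.2 and 55.2 with nutlin (0.45 ± 0.15, adjusted p = 0.0513). It shares 1593 of 5576 exonic bases with CD3EAP on the other strand, and whether counting used the strand is not given in the sources used here. It also lies 983 bases from PPP1R13L, the target of the iASPP siRNA.

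In mismatch and base excision repair 4 of 5 genes fell with nutlin in control cells, each more than 2-fold, and TDG did not pass (0.12 ± 0.15). EXO1 is the exonuclease that removes the mismatched strand and also resects broken ends. EXO1 measured 14.7 and 11.1 FPKM in CTR siRNA cells, 19.7 and 17.9 in p53 siRNA cells, 7.54 and 6.4 in iASPP siRNA cells and 17.2 and 14 in cells with both. With nutlin EXO1 stood at 1.24 and 0.152, 9.49 and 4.27, 0.184 and 1.62 and 16.2 and 7.6 FPKM in the same order. EXO1 was lowest in the control and iASPP nutlin groups and fell by 3.1 in control cells (SE 0.46, adjusted p = 6.2e-04).

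NEIL3 is a glycosylase of S phase that acts on oxidised bases and unhooks crosslinks. NEIL3 measured 7.94 and 7.16 FPKM in CTR siRNA cells, 6.58 and 7.73 in p53 siRNA cells, 2.63 and 2.79 in iASPP siRNA cells and 6.25 and 6.84 in cells with both. With nutlin NEIL3 stood at 0.427 and 0.256, 6.15 and 5.47, 0.174 and 1.06 and 4.7 and 5.08 FPKM in the same order. Its control pair with nutlin did not overlap any library outside the iASPP siRNA+nutlin group, and it fell to 4.52% of control (-2.67 ± 0.22, adjusted p = 1.9e-05). NEIL3 with iASPP siRNA alone was also below all of the other libraries without nutlin.

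MSH6 encodes a protein that recognises single mismatches. MSH6 measured 8.92 and 13.8 FPKM in CTR siRNA cells, 14.7 and 13.5 in p53 siRNA cells, 10.6 and 8.61 in iASPP siRNA cells and 15.1 and 12.1 in cells with both. With nutlin MSH6 stood at 1.5 and 2.08, 14.9 and 8.05, 1.68 and 3.25 and 7.76 and 9.88 FPKM in the same order. MSH6 was at or below 3.25 FPKM in the control and iASPP nutlin groups and at or above 7.76 elsewhere, and it fell to 15.8% of control (-2.13 ± 0.30, adjusted p = 4.4e-04). It shares 1785 of 10993 exonic bases with FBXO11 on the other strand. UNG, the uracil glycosylase, fell from 48 ± 1.55 to 12.3 ± 0.358 FPKM (-1.88 ± 0.24).

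Homologous recombination held the deepest fall, and 11 of its 12 tested genes fell with nutlin in control cells. RAD51AP1 encodes a protein that promotes strand invasion. RAD51AP1 measured 19 and 19.1 FPKM in CTR siRNA cells, 19.1 and 23.7 in p53 siRNA cells, 8.09 and 11 in iASPP siRNA cells and 15.7 and 20.3 in cells with both. With nutlin RAD51AP1 was listed at 0 and 0.440 FPKM in CTR siRNA, and stood at 21.7 and 10.7 in p53 siRNA, 1.83 and 2.81 in iASPP siRNA and 17.7 and 14.5 with both. The control nutlin libraries were the lowest of the 16 and the iASPP nutlin libraries the next, all under 3 FPKM. The fall in control cells was -4.06 ± 0.30 (adjusted p = 1.2e-05).

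RAD54L encodes a DNA motor protein of strand exchange. RAD54L measured 10.9 and 7.17 FPKM in CTR siRNA cells, 12.7 and 14.8 in p53 siRNA cells, 10.2 and 7.34 in iASPP siRNA cells and 11.3 and 12.1 in cells with both. With nutlin RAD54L stood at 1.21 and 0.355 in CTR siRNA and 11.1 and 6.37 in p53 siRNA, was listed at 0 and stood at 1.83 in iASPP siRNA, and stood at 7.26 and 8.19 with both. RAD54L was thus under 2 FPKM in those 4 libraries and above 6 in the other 12. It fell by 2.51 (SE 0.43, adjusted p = 0.00138) in control cells.

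RAD54B encodes a related motor protein. RAD54B measured 7.0 and 7.72 FPKM in CTR siRNA cells, 7.08 and 7.92 in p53 siRNA cells, 2.85 and 3.79 in iASPP siRNA cells and 5.08 and 6.89 in cells with both. With nutlin RAD54B stood at 0.407 and 0.882, 6.65 and 6.28, 1.5 and 2.47 and 4.47 and 7.13 FPKM in the same order. RAD54B was under 1 FPKM in CTR siRNA+nutlin and nowhere else, and its iASPP siRNA pair was below the other libraries without nutlin. It fell with nutlin in control cells (-2.36 ± 0.24, adjusted p = 5.1e-05), and 3139 of its 5313 exonic bases are shared with FSBP.

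On the log2(FPKM + 1) scale the remaining recombination genes differed in depth of fall, an order that is not that of the FPKM ratios. BRCA1, which helps to prepare broken ends for recombination, fell from 5.99 ± 0.281 to 0.621 ± 0.164 FPKM (-2.11 ± 0.25). Its partner BARD1 fell by 1.55, from a mean of 2.29 to 0.125 FPKM. The helicase BRIP1 fell by 1.94, from 3.22 to 0.0991 FPKM. BLM, which dissolves crossover intermediates, fell by 2.08, from 3.74 to 0.122 FPKM. BRCA2, which acts in strand exchange, was too low for the test but stood at 0.528 and 0.461 FPKM without nutlin and 0.0215 and 0.0233 with it. PALB2, which joins BRCA1 to BRCA2, fell by 0.40, from 3.51 ± 0.12 to 2.43 ± 0.188 FPKM. Among XRCC3, XRCC2, RAD51C and RAD51D, which act in recombination, XRCC3 changed by -1.69, XRCC2 by -1.07 and RAD51C by -0.58, while RAD51D did not pass (-0.69 ± 0.25, adjusted p = 0.0595). The calls of PALB2 and RAD51C were lost under median-of-ratios scaling. XRCC3 shares 5756 of its 7507 exonic bases with KLC1 on the other strand, so its level is uncertain.

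**Figure D3:**
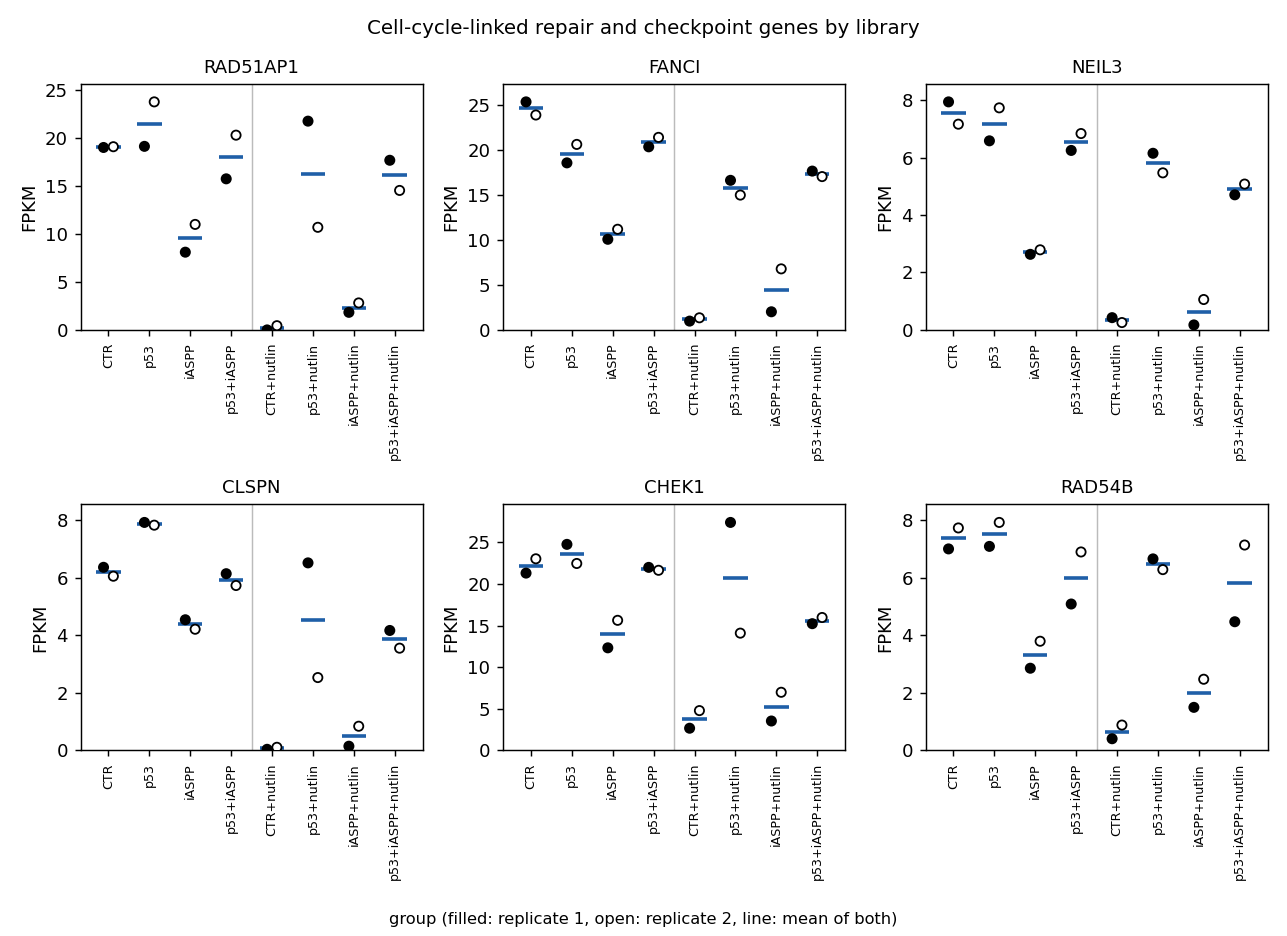
FPKM of RAD51AP1, FANCI, NEIL3, CLSPN, CHEK1 and RAD54B in the 8 groups, with replicate 1 filled, replicate 2 open and the mean as a line. In each panel the mean of iASPP siRNA+nutlin lies above that of CTR siRNA+nutlin and below that of p53 siRNA+nutlin, and for NEIL3 and CHEK1 the libraries of the control and iASPP nutlin groups overlap.

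In the Fanconi anaemia pathway 8 of 9 genes fell, from the clamp proteins to most of the core complex. FANCI, which with FANCD2 forms the clamp that the pathway ubiquitinates, fell furthest. FANCI measured 25.4 and 23.9 FPKM in CTR siRNA cells, 18.6 and 20.7 in p53 siRNA cells, 10.1 and 11.2 in iASPP siRNA cells and 20.4 and 21.4 in cells with both. With nutlin FANCI stood at 0.981 and 1.35, 16.7 and 15, 2.02 and 6.8 and 17.7 and 17.1 FPKM in the same order. Every library with p53 siRNA stayed at 15 FPKM or above, and every other library with nutlin was under 7. FANCI fell in control cells to 4.72% of its level (-3.57 ± 0.31, adjusted p = 2.6e-05). FANCD2 fell from 5.92 ± 0.306 to 0.357 ± 0.103 FPKM (-2.35 ± 0.33).

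FANCA and FANCG form a subcomplex of the core ligase. FANCA measured 12.7 and 9.74 FPKM in CTR siRNA cells, 9.11 and 11.7 in p53 siRNA cells, 4.22 and 5.4 in iASPP siRNA cells and 10.5 and 8.36 in cells with both. With nutlin FANCA stood at 0.977 and 0.839, 8.72 and 6.11, 0.229 and 2.05 and 6.34 and 6.77 FPKM in the same order. FANCG measured 12.9 and 12.1 FPKM in CTR siRNA cells, 10.7 and 15.2 in p53 siRNA cells, 5.7 and 6.66 in iASPP siRNA cells and 13.1 and 13.7 in cells with both. In those libraries both genes were about as high with p53 siRNA as with CTR siRNA, and lower with iASPP siRNA. With nutlin FANCG stood at 1.34 and 1.18, 14.6 and 9.46, 1.64 and 3.96 and 10.6 and 12.4 FPKM in the same order. FANCA fell by 2.67 (adjusted p = 2.2e-04) and FANCG fell by 2.58 (adjusted p = 7.5e-05). Among the other core genes FANCL, the ligase subunit, fell by 1.63, and FANCM, the DNA translocase, fell by 0.88. FANCC fell by 0.75 and FANCE fell by 0.45. FANCF, the adaptor of the core, stood at 2.29 and 1.19 FPKM without and 1.44 and 1.84 with nutlin (-0.03 ± 0.21). The calls of FANCC and FANCE were lost under median-of-ratios scaling. FANCA shares 2302 of 9736 exonic bases with ZNF276 on the other strand.

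In the checkpoint set 4 of 5 tested genes fell, and the sensor kinase gene ATR did not pass (-0.23 ± 0.19). CLSPN encodes claspin, the adaptor through which ATR activates CHK1. CLSPN measured 6.36 and 6.05 FPKM in CTR siRNA cells, 7.92 and 7.83 in p53 siRNA cells, 4.54 and 4.21 in iASPP siRNA cells and 6.14 and 5.73 in cells with both. With nutlin CLSPN stood at 0.0403 and 0.11, 6.52 and 2.53, 0.148 and 0.842 and 4.17 and 3.55 FPKM in the same order. The CLSPN control nutlin libraries were the lowest of all, and the group means fell from 6.21 to 0.0752 FPKM (-2.75 ± 0.30, adjusted p = 8.1e-05).

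CHEK1 encodes the kinase CHK1 itself. CHEK1 measured 21.3 and 23 FPKM in CTR siRNA cells, 24.7 and 22.4 in p53 siRNA cells, 12.3 and 15.6 in iASPP siRNA cells and 22 and 21.6 in cells with both. With nutlin CHEK1 stood at 2.67 and 4.79, 27.4 and 14.1, 3.54 and 6.99 and 15.2 and 16 FPKM in the same order. CHEK1 was under 7 FPKM in the control and iASPP nutlin groups and above 12 elsewhere, and it fell 5.94-fold in control cells (-2.33 ± 0.32, adjusted p = 3.5e-04). TOPBP1 activates ATR at stalled forks. TOPBP1 measured 6.21 and 5.98 FPKM in CTR siRNA cells, 7.79 and 6.63 in p53 siRNA cells, 4.22 and 3.95 in iASPP siRNA cells and 5.73 and 6.06 in cells with both. With nutlin TOPBP1 stood at 1.14 and 1.98, 6.24 and 3.77, 1.18 and 2.09 and 5.38 and 4.63 FPKM in the same order. TOPBP1 ended at 25.6% of control (-1.49 ± 0.23, adjusted p = 7.7e-04). CHEK2, the kinase downstream of ATM, fell by 0.80, from 15.7 ± 0.803 to 8.56 ± 0.424 FPKM, and 4 pseudogenes carry its name. ATM, the kinase for double-strand breaks, was too low for the test and stood at 0.292 and 0.352 FPKM without and 0.185 and 0.274 with nutlin.

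A wider list of 102 other genes of these pathways, 96 of them tested, gave 1 rise and 48 falls, beside 5.87% rises and 21% falls among all genes. The rise was PPM1D (1.19 ± 0.19), the WIP1 phosphatase that switches the checkpoint off and a known p53 target. In homologous recombination 13 of 17 fell, among them RMI2 at -2.70 ± 0.25 (adjusted p = 3.5e-05). In the Fanconi pathway 6 of 9 fell, led by the conjugating enzyme gene UBE2T at -3.18 ± 0.24 and USP1 at -2.17 ± 0.21. The checkpoint list had 10 of 16 falling, including H2AX at -2.26 ± 0.36 and CDC25A at -2.18 ± 0.31. Base excision had 7 of 18, with the flap nuclease gene FEN1 at -3.47 ± 0.35 and PARP2 at -2.22 ± 0.24. Mismatch repair had 2 of 5 (PMS2 -0.56 ± 0.18 among them) and translesion synthesis 2 of 5 (RAD18 -1.68 ± 0.22, MAD2L2 -1.06 ± 0.16). End joining had 4 of 11 (PAXX -1.14 ± 0.15, PRKDC -0.84 ± 0.15) and nucleotide excision 4 of 15 (CETN2 -0.87 ± 0.16, ERCC8 -0.50 ± 0.15). The nucleotide excision share is near that of all genes, and these short lists were not tested as sets. Of 5 general cell-cycle genes read alongside 4 fell, with a median of -2.87. The part that cell division has in these values was not tested.

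p53 siRNA was then compared with CTR siRNA among the nutlin-treated cells, which shares the CTR siRNA+nutlin libraries with the comparison above. All 20 cell-cycle-linked genes were higher with p53 siRNA, 19 of them at least 2-fold, and XPC and POLH were lower. RAD51AP1 was higher by 3.76 ± 0.30 (adjusted p = 3.4e-05), FANCI by 2.96 ± 0.31 (adjusted p = 1.2e-04) and FANCG by 2.50 ± 0.28. XPC differed by -1.22 ± 0.28 (adjusted p = 0.0102) and POLH by -1.64 ± 0.37 (adjusted p = 0.00957). The XPC call was lost without p53 siRNA+nutlin replicate 1 (-0.81, adjusted p = 0.0928), without either CTR siRNA+nutlin library and with only the 4 libraries fitted (adjusted p = 0.0555), and the POLH call without CTR siRNA+nutlin replicate 2 (adjusted p = 0.0607). DDB2 did not pass (-1.04 ± 0.39, adjusted p = 0.0773), and differed by -0.53 (adjusted p = 0.44) without p53 siRNA+nutlin replicate 1 and by -1.55 without replicate 2 (adjusted p = 0.0276, or 8.8e-05 without all 3 diverging libraries). By limma 27 of the 37 rose and 2 fell, where 17.2% of all genes rose and 5.29% fell. The median was 2.13 for the cell-cycle-linked genes, 0.66 for the 13 others (7 higher) and 0.19 for all genes. Rises made 76.5% of all calls, and 51.6% under median-of-ratios scaling, which shifted the median of all genes by -0.193 and gave 23 rises and 5 falls among the 37. The total of 29 was 30 without the diverging libraries, 19 without p53 siRNA+nutlin replicate 1, 19 when only the 4 libraries compared were fitted, and 0 with close pairs counted once (28 at an unadjusted p under 0.05). Of the 96 other pathway genes 43 were higher, FEN1 by 3.04 ± 0.35 among them, and 2 were lower.

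A difference of 2 nutlin effects, or interaction, asks whether nutlin acted differently once p53 was silenced. In p53-silenced cells 19 of the 20 cell-cycle-linked genes were below 0 with nutlin but none passed the test, with a median of -0.33 and a range from -1.41 (EXO1) to 0.16 (RAD51C). 0 of the 37 passed limma there, where 0.225% of all genes did (0.0844% as falls), and 7 were lower at an unadjusted p under 0.05. Without p53 siRNA+nutlin replicate 1, which left the lower-reading replicate 2 alone, 4 fell. The interaction passed the threshold above 0 for 17 of the 37 and below 0 for none, against 7.65% and 2.1% of all genes (9.75% in either direction). It passed for 15 of the 20 cell-cycle-linked genes, with RAD51AP1 at 3.61 ± 0.43 (adjusted p = 0.00168), FANCI at 3.28 ± 0.44 (adjusted p = 0.0024), FANCG at 2.47 ± 0.39 and NEIL3 at 2.41 ± 0.31. The others past the threshold were FANCL (1.66 ± 0.39) and POLK (0.84 ± 0.19). BRCA1, EXO1, RAD54L, XRCC2 and TOPBP1 did not pass.

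The p53-activated genes stood short of the threshold in the interaction, at -0.69 ± 0.40 for XPC, -1.33 ± 0.53 for POLH and -0.08 ± 0.55 for DDB2 (adjusted p = 0.289, 0.131 and 0.947). Without the diverging libraries, where p53 siRNA+nutlin is replicate 1 alone and is assumed to vary like the other groups, 24 were above 0 and 3 below, and those 3 were XPC, DDB2 and POLH. The count of 17 was 10 without either CTR siRNA library, 7 without p53 siRNA replicate 1 or CTR siRNA+nutlin replicate 1, 11 without CTR siRNA+nutlin replicate 2 and 8 without p53 siRNA+nutlin replicate 1. It was 0 with close pairs counted once (14 at an unadjusted p under 0.05). Of all calls 78.5% were above 0, and 59.2% under median-of-ratios scaling, which gave 15 above 0 among the 37.

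**Figure D4:**
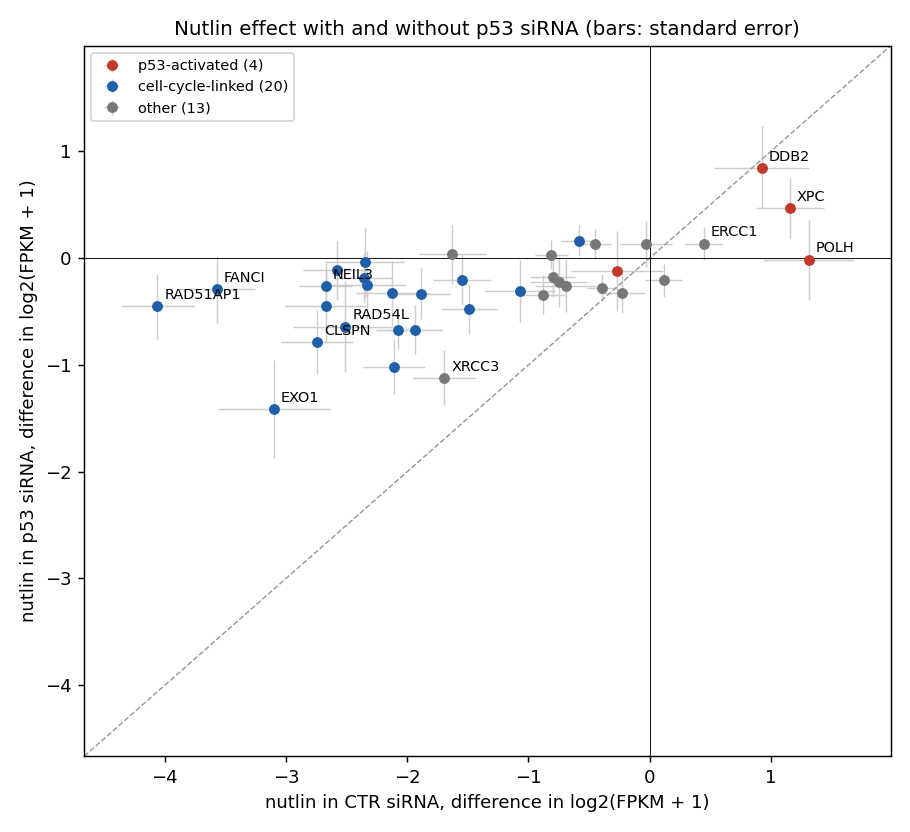
The nutlin difference in CTR siRNA (x axis) against that in p53 siRNA (y axis) for the 37 tested genes, both in log2(FPKM + 1) with bars of 1 standard error and the line of equal effect dashed. The 20 cell-cycle-linked genes reach -4.06 on the x axis and no lower than -1.41 on the y axis, while DDB2 lies close to the line. The libraries behind its y value differ, at 15 and 31.5 FPKM with p53 siRNA and nutlin against 10.5 and 13 with p53 siRNA alone.

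Without nutlin no repair gene passed the test of p53 siRNA against CTR siRNA. The cell-cycle-linked median was 0.12, with 15 of 20 above 0. 0 of the 37 passed limma, where 0.0375% of all genes did, and at an unadjusted p under 0.05 DDB2 was lower and XRCC3 higher. DDB2 differed by -0.96 ± 0.39 (adjusted p = 0.331), XPC by -0.54 ± 0.28 (adjusted p = 0.445) and POLH by -0.32 ± 0.37. XRCC3 stood at 12.3 and 12.2 FPKM with p53 siRNA and 12.4 and 12.4 with both siRNAs, against 5.02 and 6.76 with CTR siRNA and 7.09 and 8.23 with iASPP siRNA. These p53-silenced libraries thus all lay above the others without nutlin, though the difference did not pass (0.95 ± 0.26, adjusted p = 0.204). Without the diverging libraries, when the spread comes from the close pairs alone, XPC and DDB2 fell and XRCC3 rose.

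iASPP siRNA without nutlin lowered a small set of the repair genes. RAD54B, FANCI, BLM, NEIL3, FANCE and FANCL fell, and none of the 37 rose, where 2.75% of all genes rose and 5.11% fell by limma, 7.86% in all. NEIL3 differed by -1.20 ± 0.22 (adjusted p = 0.0125), FANCI by -1.14 ± 0.31 (adjusted p = 0.0498), FANCL by -1.06 ± 0.28, RAD54B by -0.96 ± 0.24, BLM by -0.76 ± 0.18 and FANCE by -0.50 ± 0.13. Of the 20 cell-cycle-linked genes 18 were below 0, with a median of -0.60 against -0.09 for all genes. POLH stood at 2.23 times its control level in FPKM without passing (1.01 ± 0.37, adjusted p = 0.112), DDB2 differed by 0.50 ± 0.39 and XPC by 0.14 ± 0.28. Among the 96 other pathway genes 1 rose and 9 fell. Rises made 35% of all calls and 45.7% under median-of-ratios scaling, with 5 falls among the 37. The count of 6 was 0 without any 1 of the CTR siRNA or iASPP siRNA libraries, 17 without the diverging libraries (15 falls, and DDB2 and POLH rising), 14 when only the 4 libraries were fitted, 1 with a pseudocount of 0.1 FPKM, 2 without the filter on low values, 3 under upper quartile scaling and 0 with close pairs counted once (3 at an unadjusted p under 0.05).

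With p53 silenced, no repair gene passed the test of iASPP siRNA. NEIL3 differed by -0.11 ± 0.22, FANCI by 0.09 ± 0.31 and POLH by -0.27 ± 0.37, and the cell-cycle-linked median was -0.12. 0 of the 37 passed limma against 0.947% of all genes, 0.422% as falls (2 at an unadjusted p under 0.05, 1 in each direction), and BLM and CLSPN fell without the diverging libraries. The difference between these iASPP effects passed for 0 of the 37 (6 at an unadjusted p under 0.05), where 0.0281% of all genes passed, 0.0188% above 0 and 0.00938% below, and a p that misses the threshold does not show that the effects were alike. FANCI gave 1.23 ± 0.44 (adjusted p = 0.259) and POLH -1.28 ± 0.53 (adjusted p = 0.30). It passed for 8 without the diverging libraries, DDB2 and POLH below 0 and FANCD2, FANCG, FANCI, UNG, NEIL3 and FANCE above, and for 6 when only these 8 libraries were fitted. Read the other way, p53 siRNA in iASPP-silenced cells gave a cell-cycle-linked median of 0.63, POLH at -1.60 ± 0.37 and DDB2 at -1.51 ± 0.39. 0 of the 37 passed there against 0.975% of all genes, 0.422% as rises (17 at an unadjusted p under 0.05, 15 of them higher), while 16 passed without the diverging libraries, and 13 when only those 4 libraries were fitted. Shares of all genes were not set beside the unadjusted and refit counts in this paragraph, so those counts do not single out the repair genes. The iASPP and p53 comparisons share their libraries, so the values of both are set side by side only.

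**Figure D5:**
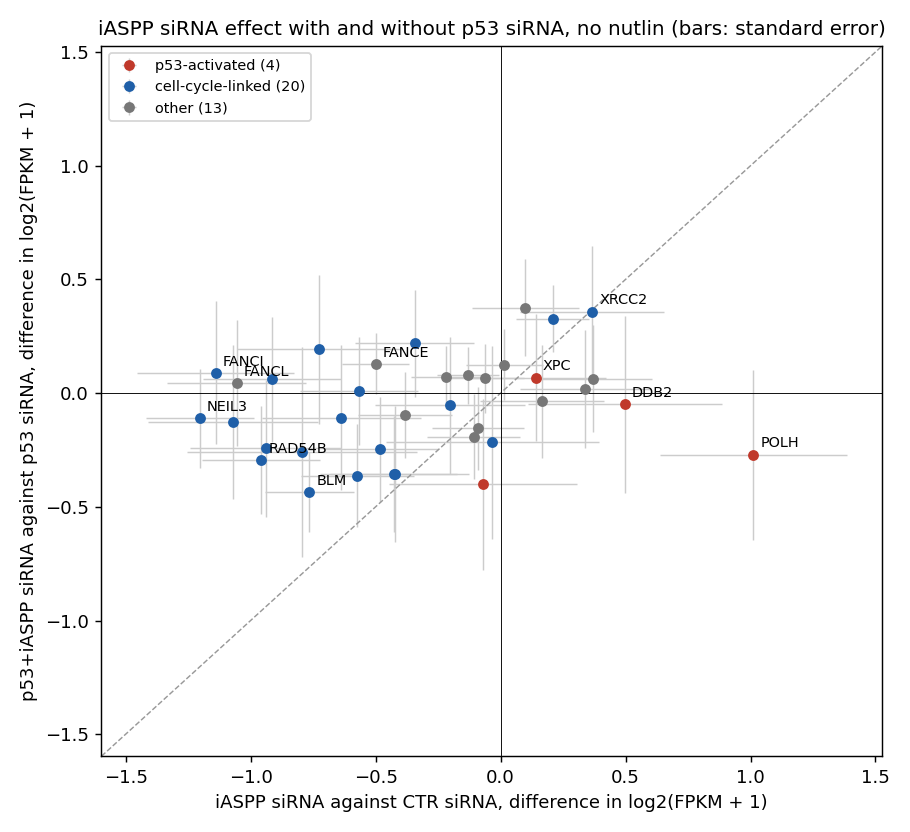
The iASPP siRNA difference without nutlin in cells with p53 (x axis) against that in cells with p53 siRNA (y axis) for the 37 tested genes, in log2(FPKM + 1) with bars of 1 standard error and the line of equal effect dashed. NEIL3 at -1.20 and FANCI at -1.14 lie lowest on the x axis and near 0 on the y axis, and POLH lies at 1.01 and -0.27.

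Among nutlin-treated cells the mean level with iASPP siRNA lay between those with CTR siRNA and with p53 siRNA for all 20 tested cell-cycle-linked genes. The 2 iASPP siRNA+nutlin libraries differed, and 19 of the 20 genes were higher in replicate 2, a diverging library. In replicate 1 some, FANCA, NEIL3, RAD54L and UNG among them, stood below both CTR siRNA+nutlin libraries. Others, RAD51AP1, RAD54B and FANCI among them, stood above both. None of the 20 cell-cycle-linked genes passed the test of iASPP siRNA against CTR siRNA (median 0.27). POLK was higher with iASPP siRNA there (0.71 ± 0.14, adjusted p = 0.0453), and was the only 1 of the 37 to pass, where 0.769% of all genes did, 0.506% as rises. That call was lost without either CTR siRNA+nutlin library, under median-of-ratios and upper quartile scaling, without the filter on low values, with only the 4 libraries fitted and with close pairs counted once (3 at an unadjusted p under 0.05), and without iASPP siRNA+nutlin replicate 1, where RAD51AP1, FANCD2, FANCG and FANCI passed instead. RAD51AP1 differed by 1.45 ± 0.30 (adjusted p = 0.0575), and passed beside POLK without the diverging libraries. Rises made 65.9% of all calls, against 32.1% with median-of-ratios scaling. XPC (-0.08 ± 0.28), DDB2 (-0.20 ± 0.39) and POLH (-0.03 ± 0.37) did not pass.

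Nutlin in iASPP-silenced cells brought down 17 of the 37 and raised none, against 3.9% falls and 1.3% rises among all genes, 5.21% together. These were 16 of the 20 cell-cycle-linked genes and XRCC3, with RAD54L at -2.52 ± 0.43 (adjusted p = 0.0117) and EXO1 at -2.17 ± 0.46 (adjusted p = 0.0239). The cell-cycle-linked median was -1.27, compared with -2.34 in control cells, -0.33 with p53 siRNA and -0.35 with both. All of those genes but XRCC2 and RAD51C had a lower mean with iASPP siRNA before nutlin, NEIL3 at 2.71 against 7.55 FPKM. The log2(FPKM + 1) scale stops at 0, so genes that started lower had less room to fall. Most of them were also higher in replicate 2 of iASPP siRNA+nutlin, a diverging library. The count became 22 without the diverging libraries, 4 without iASPP siRNA+nutlin replicate 1, 10 without the filter on low values and 0 without either iASPP siRNA library, with only the 4 libraries fitted or with close pairs counted once (18 at an unadjusted p under 0.05). The nutlin effect was less negative with iASPP siRNA for RAD51AP1 (2.39 ± 0.43, adjusted p = 0.0315), FANCI (2.31 ± 0.44, adjusted p = 0.0389) and RAD54B (1.81 ± 0.34, adjusted p = 0.0354), 3 of the 37 against 0.825% of all genes (0.197% below 0 and 1.02% in either direction). All 3 already stood lower with iASPP siRNA before nutlin, RAD51AP1 by a difference of -0.94 that did not pass (adjusted p = 0.0761). That count became 9 without the diverging libraries (8 above 0 and DDB2 below), 12 without iASPP siRNA+nutlin replicate 1, and 0 without any 1 of the CTR siRNA, iASPP siRNA or CTR siRNA+nutlin libraries, without the filter, with only the 8 libraries fitted or with close pairs counted once (7 at an unadjusted p under 0.05). RAD51AP1 and RAD54B also lost their calls without iASPP siRNA+nutlin replicate 2. Calls above 0 made 80.7% of all calls, and 50% under median-of-ratios scaling, which shifted the median of all genes by -0.166.

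With iASPP silenced and nutlin added, p53 siRNA raised 21 of the 37 and lowered 2, where 10.8% of all genes rose and 4.82% fell. EXO1 rose by 2.79 ± 0.46 (adjusted p = 0.00285), RAD54L by 2.37 ± 0.43 and RAD51AP1 by 2.37 ± 0.30, and 19 of the 20 cell-cycle-linked genes rose, all but RAD51C. XPC differed by -1.10 ± 0.28 (adjusted p = 0.0237) and POLH by -1.50 ± 0.37 (adjusted p = 0.0208). Rises made 69.1% of all calls, against 58.7% with median-of-ratios scaling. All 23 remained among the 26 that passed without the diverging libraries, 14 genes passed without iASPP siRNA+nutlin replicate 1, and 0 passed when only the 4 libraries were fitted (23 at an unadjusted p under 0.05) or with close pairs counted once (24 at an unadjusted p under 0.05). In cells with both siRNAs nutlin changed 0 of the 37 and 0 of all genes by limma (1 of the 37 at an unadjusted p under 0.05). DDB2 stood there at 11.1 and 11.5 FPKM without and 13.4 and 36 with nutlin (0.91 ± 0.39, adjusted p = 0.694), the higher value being the diverging library.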

How the data were processed

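Messenger RNA of 16 libraries was measured, 2 in each of 8 groups. Gene levels were deposited by the authors as FPKM, already normalised for depth and transcript length. edgeR and the hg38 build are named, per the submitters' processing notes, with no role stated, while for aligner, counter and strandedness the sources used here give nothing. Since FPKM are not counts, limma 3.58.1 in R 4.3.3 was used on log2(FPKM + 1), with genes at a mean of at least 1 FPKM (10662 of 20271), 1 mean per group, an intensity trend, 8 residual and 3.15 prior degrees of freedom, and Benjamini-Hochberg adjustment over all tested genes within each comparison at 0.05. The smallest exact permutation p of 2 against 2 libraries is 0.333, so no such test was made. FPKM files hold no counts, and depth is relative only.

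The 39 members, their classes and the wider lists were chosen with earlier results of these data known. Values in every library are printed for the 4 p53-activated genes and, in each role, for up to 3 genes with the largest nutlin difference among those past the threshold in control cells. Others are given by value where they passed in some comparison. BRCA2, ATM, ERCC1 and FANCF were named after their values were seen. Coordinates come from GENCODE (GRCh38) and promoters from RefSeq (GRCh38.p14). The procedure was tested on simulated data. Alternatives covered the pseudocount, the filter, scaling, the trend, the libraries fitted and the replicate number as a block. The level of the p53 siRNA's own target and some genes that the naming rule picks are not reported here.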

Additional observations from a re-analysis of the deposited data

Results flagged for a closer look

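The nutlin effect differed with p53 siRNA, by limma's test of the interaction on the log2(FPKM + 1) scale, for 17 of the 37 tested genes. Among all genes the share was 9.75%, with 7.65% above 0. In homologous recombination the differences were 3.61 for RAD51AP1, 2.17 for RAD54B, 1.41 for BLM, 1.35 for BARD1, 1.27 for BRIP1 and 0.75 for RAD51C. In the Fanconi pathway they were 3.28 for FANCI, 2.47 for FANCG, 2.31 for FANCD2, 2.22 for FANCA and 1.66 for FANCL. In base excision and mismatch repair they were 2.41 for NEIL3, 1.80 for MSH6 and 1.55 for UNG. The checkpoint genes gave 2.08 for CHEK1 and 1.96 for CLSPN, and the polymerase gene POLK gave 0.84. The nutlin effect was less negative, or above 0, with p53 silenced for each of them. Without the filter on low values 13 of these 17 calls remained. The nutlin effect also differed with iASPP siRNA, by 2.39 for RAD51AP1, 1.81 for RAD54B and 2.31 for FANCI, where 1.02% of all genes passed. Those 3 calls were lost without the filter, and with only the 8 libraries compared fitted.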

How the results depend on the processing

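Counts here are of the 37 tested genes past limma's adjusted p of 0.05, and as reported they were 30 for nutlin in control cells, 29 for p53 siRNA in nutlin, 17 for the nutlin by p53 interaction, 6 for iASPP siRNA, 1 for iASPP siRNA in nutlin, 23 for p53 siRNA in iASPP-silenced nutlin cells, 17 for nutlin in iASPP-silenced cells, 3 for the nutlin by iASPP interaction and 0 in the other 6. With a pseudocount of 0.1 iASPP siRNA gave 1 without and 2 with nutlin. Without the filter these gave 2 and 0, nutlin in iASPP-silenced cells 10 and its interaction 0. iASPP siRNA in nutlin gave 0 under median-of-ratios scaling, and iASPP siRNA alone 3 under upper quartile scaling. Without the 3 diverging libraries, an alternative that takes the spread from close pairs, counts were 27 for the nutlin by p53 interaction, 17 for iASPP siRNA, 2 for it in nutlin, 2 for it in p53-silenced cells, 3 for p53 siRNA, 16 for it in iASPP-silenced cells, 8 for the p53 by iASPP and 9 for the nutlin by iASPP interaction. With close pairs counted once 0 passed in every comparison. With only the groups compared fitted, p53 siRNA in nutlin gave 19, iASPP siRNA 14, p53 siRNA in iASPP-silenced cells 13 without and 0 with nutlin, the p53 by iASPP interaction 6, and iASPP siRNA in nutlin, nutlin in iASPP-silenced cells and its interaction 0. Leaving out 1 library gave ranges of 22 to 26 for nutlin, 19 to 30 for p53 siRNA in nutlin, 7 to 19 for their interaction, 0 to 4 for nutlin in p53-silenced cells, 0 to 4 for iASPP siRNA in nutlin, 14 to 24 for p53 siRNA in iASPP-silenced nutlin cells, 0 to 20 for nutlin in iASPP-silenced cells, 0 to 12 for its interaction, and 0 throughout for the rest, a lone library being assumed to vary like the other groups. ERCC5 reversed sign without CTR siRNA+nutlin replicate 1, to 0.083 for nutlin (adjusted p = 0.928) and -0.18 for p53 siRNA in nutlin (adjusted p = 0.841). Its ranges over left-out libraries were -0.62 to 0.083 and -0.18 to 0.52. Deviations of same-numbered libraries gave 28 correlations from -0.074 to 0.376, 5 of them over 0.1, so the numbers were not taken as pairs, although they go with depth and all 3 diverging libraries are replicate 2. With the replicate block counts were 30, 30, 16, 5, 0, 24, 14 and 3 in the order above, DDB2 gaining a call for p53 siRNA in nutlin (adjusted p = 0.0374) and POLK losing its call for iASPP siRNA in nutlin. Of 1767 values for single genes under alternatives 1279 kept direction and side of the threshold, 477 lost it, 9 gained it and 2 reversed. The causes were not tested. Shares of all genes under these alternatives are not given, so a changed count does not speak for the repair genes in particular. Depth limits genes near 1 FPKM.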
